A study of Mus musculus with 5 samples.

Results

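Enterocytes, proximal tubule cells of the kidney and the visceral endoderm of the yolk sac carry a brush border, a lawn of microvilli on the surface that faces the lumen or, in the yolk sac, the maternal side. Bundled actin held by villin shapes each microvillus, ezrin ties the actin to the membrane, PDZ scaffolds hold transporters there, and membrane-bound peptidases and carbonic anhydrase act on solutes before uptake. The visceral endoderm feeds the mouse embryo before the placenta takes over, and its apical membrane is known for high uptake of nutrients. Described here are 8 genes of such membranes, of 12393 genes on the array: the water channel Aqp8, the glucose transporter Slc2a2, the scaffold Pdzk1, the peptidases Dpp4 and Anpep, the carbonic anhydrase Car4, and the cytoskeletal proteins Vil1 and Ezr. They were taken by name, as every probe set annotated to 1 of these symbols only, which gave 11 probe sets. The genes were proposed with fold changes of the comparison below already known, so their differences between the genotypes are a description and carry no test. Not all are apical transporters or peptidases: Vil1 and Ezr are neither transporters nor peptidases, and Slc2a2 lies mainly in the basolateral membrane of enterocytes and hepatocytes.

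The samples were whole C57BL6J mouse embryos of gestation day 9.5, with 2 arrays labelled Folr1-/- and 3 labelled Folr1+/+, all of the Affymetrix type Mouse Genome 430A. Folr1 is a folate receptor of the cell surface. Per the labels, the Folr1-/- embryos came from Folr1+/- parents, with the mothers given extra folate from 2 weeks before mating and through pregnancy, and no separate diet is named for mothers of Folr1+/+ embryos. Decidua, chorion and amnion had been dissected away, with no word on the yolk sac, and nothing says if each array was hybridised with 1 embryo or several. The arrays are called biological replicates, and with 2 and 3 of them the spread between arrays is poorly known for any 1 gene. The Folr1 probe set gave 50.2 and 41.8 in the Folr1-/- arrays, against 57.0, 50.01 and 40.2 in the Folr1+/+ arrays, and the groups overlapped (limma adjusted p = 0.858). It does not check the genotype, because the sources used here do not say which part of the gene the allele lacks.

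The deposited values are MAS5 signals, brightness per probe set on a linear scale. With no detection calls at hand, background was read from 129 probe sets of 107 genes not expected in a day 9.5 embryo, such as olfactory and vomeronasal receptors, hair keratin-associated proteins and protamines. The 95th percentile of their signals was 23.0 and 17.6 on the Folr1-/- arrays and 24.7, 30.4 and 25.5 on the Folr1+/+ arrays, and a signal under that of its own array is called near background below. Differences are given as the mean log2(signal + 16) of the Folr1-/- arrays minus that of the Folr1+/+ arrays, with the standard error (SE) of the limma fit. That SE draws each gene's spread between arrays toward the spread of genes with like signal, so it is not the gene's own spread alone. The 16 is a pseudocount that damps the noise of dim probe sets and makes their fold changes smaller. A filter at the 40th percentile of the genes' mean level, a signal of about 30.0, kept dim genes out of the test, and a tested gene passed when its adjusted p was under 0.05. Each probe set has its own efficiency, so no gene's level is set against another's. Signal ranks serve only to choose which relatives are named, and a signal summed over a list is carried by its brightest probe sets.

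All 8 genes had higher mean signals in the Folr1-/- arrays, and in 10 of the 11 probe sets both Folr1-/- signals lay above all 3 Folr1+/+ signals. The same held for 15.5% of the 20380 probe sets with 1 gene symbol. The median log2 difference over all 8 genes was 2.62, against a median of -0.02 over all 7436 genes tested. Aqp8, Pdzk1, Slc2a2, Dpp4, Car4 and Vil1 differed by 2.36 to 2.92, while Ezr differed by 1.14 and Anpep by 0.39. Among the genes tested, 0.471% had a difference of at least 2. The filter left 6 of the 8 in the test, without Vil1 and Anpep, and all 6 were called higher where 8.19% of all tested genes were (10.3% with each array centred on its median). The rule that proposed the genes used this contrast, so nothing is read from that count.

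**Figure D1:**
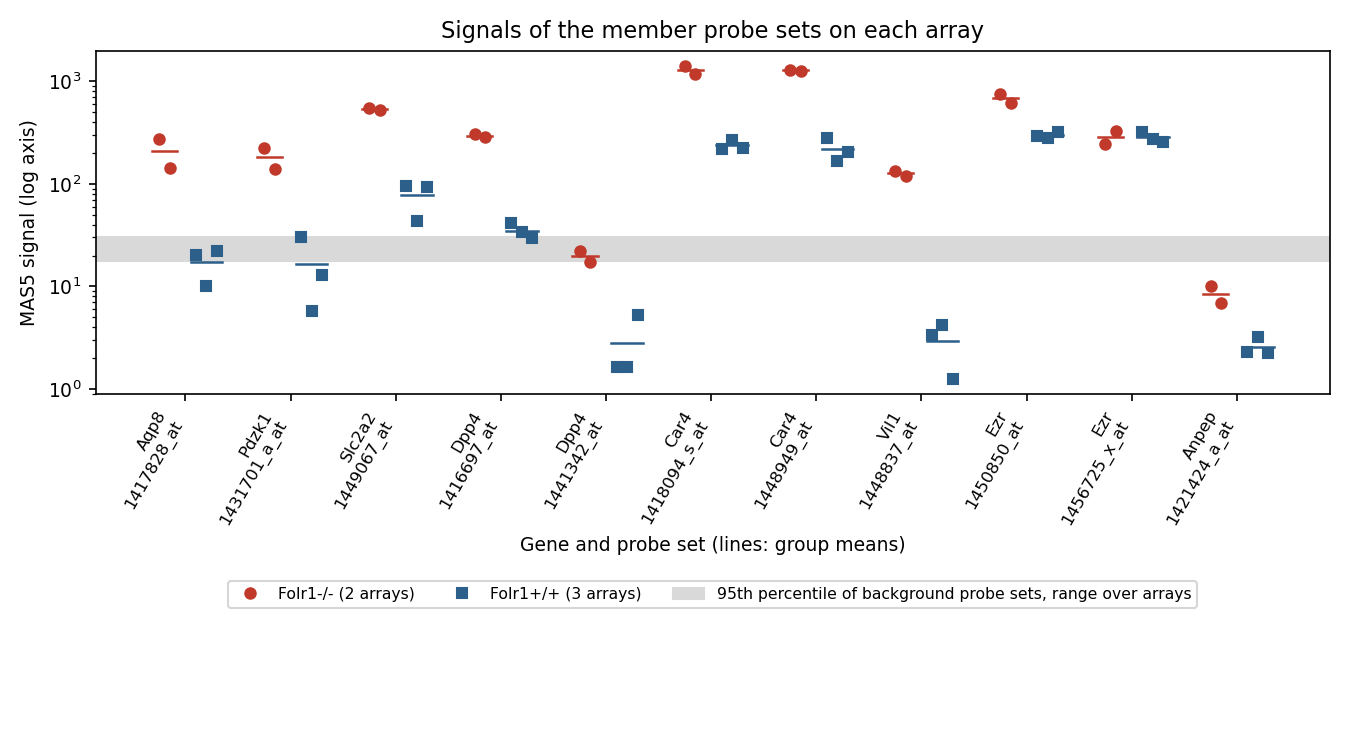
MAS5 signals (log axis) of the 11 probe sets of the 8 genes on the 2 Folr1-/- arrays (circles) and the 3 Folr1+/+ arrays (squares), with a line at each group mean and a grey band at the 95th percentile of the background probe sets over the 5 arrays. The groups overlap only in the second Ezr probe set, and Vil1 lies below the band in every Folr1+/+ array and above it in both Folr1-/- arrays.

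Aqp8, an aquaporin that passes water and small solutes, gave signals of 275 and 143 in the Folr1-/- arrays, against 20.4, 10.1 and 21.96 in the Folr1+/+ arrays (probe set 1417828_at). All 3 Folr1+/+ signals were near background and neither Folr1-/- signal was, and the groups did not overlap. The log2 difference was 2.70 ± 0.27 (SE). Set against the background bound of the Folr1+/+ arrays in place of their own dim signals, the geometric mean Folr1-/- signal was at least 7.42-fold higher. That is a bound on the mean and not on each array. The 2 Folr1-/- arrays stood apart by 1.92-fold, the widest gap between them among the 8 genes.

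Slc2a2 encodes GLUT2, a facilitative glucose transporter of low affinity and high capacity. Its signals were 551 and 528 in the Folr1-/- arrays and 96.2, 43.4 and 93.9 in the Folr1+/+ arrays (1449067_at). No array was near background, and the lowest Folr1-/- signal was 5.49 times the highest Folr1+/+ signal. The log2 difference was 2.62 ± 0.25 (SE). Folr1+/+ replicate 2 was the low one, and without it the difference was 2.32.

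Pdzk1 encodes a protein of several PDZ domains that anchors transporters and the HDL receptor SR-BI at the membrane. Its signals were 225 and 139 in the Folr1-/- arrays, against 30.6, 5.74 and 12.9 in the Folr1+/+ arrays (1431701_a_at). Of the Folr1+/+ signals 2 were near background, and that of replicate 1 was above it. They spanned 5.33-fold, the widest spread within the Folr1+/+ group in the 8 genes, yet did not reach the Folr1-/- signals. The log2 difference was 2.65 ± 0.31 (SE), with 2.40 without Folr1+/+ replicate 2 and 2.95 without Folr1+/+ replicate 1.

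Dpp4, or CD26, is a serine peptidase that removes dipeptides after proline or alanine from peptides. Its brighter probe set (1416697_at) gave 305 and 286 in the Folr1-/- arrays and 41.5, 33.6 and 29.4 in the Folr1+/+ arrays, a log2 difference of 2.62 ± 0.18 (SE). The second probe set (1441342_at) was dim throughout, with 22.4 and 17.2 in the Folr1-/- arrays, against 1.63, 1.64 and 5.21 in the Folr1+/+ arrays. All 5 of those signals were near background, although the order of the groups was the same in both probe sets.

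Anpep, aminopeptidase N, cleaves amino acids from the N terminus of peptides and is among the most abundant brush border enzymes of the gut. Its only probe set (1421424_a_at) was near background on every array, with 9.99 and 6.84 in the Folr1-/- arrays and 2.27, 3.22 and 2.23 in the Folr1+/+ arrays. The groups did not overlap, but the log2 difference of 0.39 is made of signals that the background probe sets also reach. Anpep fell under the filter and was not tested, and with no filter it did not pass. At this signal a level of Anpep was not detectable in either group.

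Car4 encodes a carbonic anhydrase held on the outer face of the membrane by a lipid anchor, where it speeds the exchange of bicarbonate and carbon dioxide. Its first probe set (1418094_s_at) gave 1402 and 1176 in the Folr1-/- arrays and 220, 270 and 222 in the Folr1+/+ arrays. The second (1448949_at) gave 1306 and 1265 in the Folr1-/- arrays, against 281, 167 and 205 in the Folr1+/+ arrays. Both were far above background on all 5 arrays, with log2 differences of 2.36 ± 0.16 (SE) for the first and 2.51 for the second. The groups did not overlap in either probe set.

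Vil1 encodes villin, which bundles the actin of the microvillus core. Its signals were 133 and 120 in the Folr1-/- arrays, against 3.32, 4.16 and 1.26 in the Folr1+/+ arrays (1448837_at). All 3 Folr1+/+ signals lay under even the median of the background probe sets of their arrays (5.56, 8.92 and 7.20), so no Vil1 signal was detectable there, and both Folr1-/- arrays were well above background. The log2 difference was 2.92 and is set largely by the pseudocount. Against the background bound of the Folr1+/+ arrays the geometric mean Folr1-/- signal was at least 4.72-fold higher. Because its mean over all 5 arrays missed the filter, Vil1 was not tested, and with no filter it was called higher, as were 3.52% of all 12393 genes.

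Ezr encodes ezrin, which joins actin to the apical membrane and docks PDZ scaffolds there. The probe set with the higher mean (1450850_at) gave 752 and 612 in the Folr1-/- arrays and 295, 280 and 323 in the Folr1+/+ arrays, with a log2 difference of 1.14 ± 0.16 (SE). The other (1456725_x_at) gave 244 and 331 in the Folr1-/- arrays and 322, 274 and 256 in the Folr1+/+ arrays, with a log2 difference of 0.01 and full overlap. The mark x in that name is the manufacturer's sign for probes that can also bind other transcripts. The 2 probe sets of Ezr therefore disagree, and with the mean of both the difference was 0.57.

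**Figure D2:**
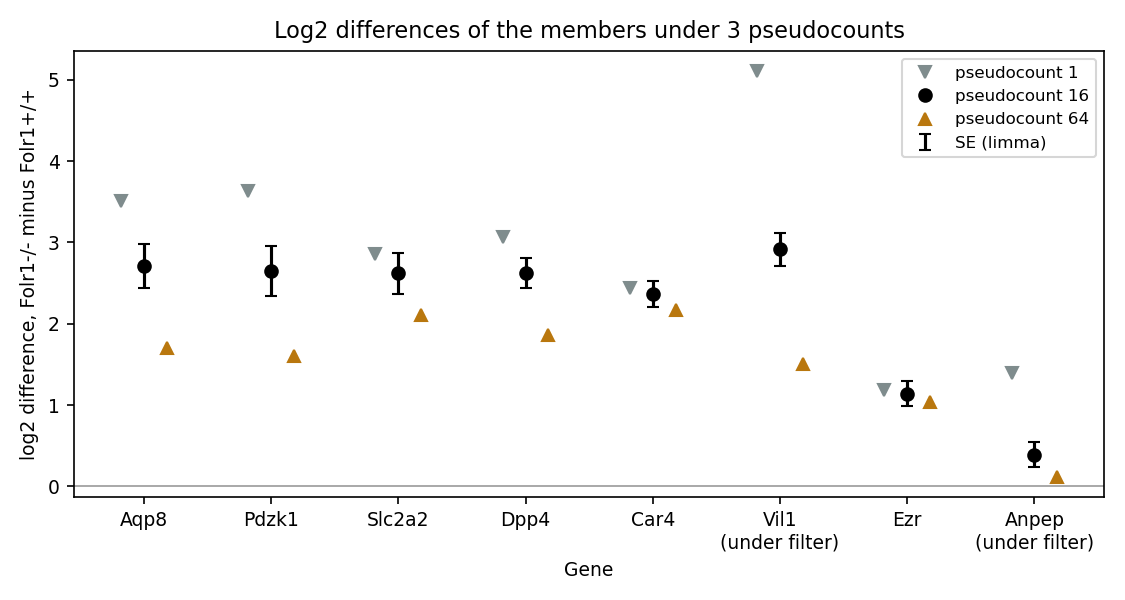
Log2 differences (Folr1-/- minus Folr1+/+) of the 8 genes, each at its brightest probe set, with pseudocounts of 1, 16 and 64, and the limma SE for 16 (for Vil1 and Anpep that of the fit with no filter). Vil1 spans 5.11 to 1.51 and Aqp8 3.503 to 1.71, while Car4 stays between 2.44 and 2.17 and Ezr between 1.18 and 1.03.

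Size, but not direction, depended on the pseudocount for the genes that were dim in the Folr1+/+ arrays. With a pseudocount of 64 the log2 difference was 1.71 for Aqp8, 1.60 for Pdzk1 and 1.51 for Vil1, and with 1 it was 3.503, 3.63 and 5.11 in the same order. Aqp8 and Pdzk1 passed the filter only through their Folr1-/- signals, since their Folr1+/+ means alone lie under it, and such genes had to differ to be tested. Slc2a2, Dpp4, Car4 and Ezr passed on their Folr1+/+ means alone. Leaving out Folr1-/- replicate 1 gave differences of 1.00 for Ezr to 2.59 for Slc2a2 over the 6 tested genes, and leaving out Folr1-/- replicate 2 gave 1.29 for Ezr to 3.14 for Aqp8.

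The 2 Folr1-/- arrays were ordered alike in all 8 genes, with replicate 1 above replicate 2, from 1.04-fold in Slc2a2 to 1.92-fold in Aqp8 at the chosen probe sets. Among tested genes called higher 63.5% had replicate 1 above replicate 2, and among all tested genes 53.8%. Only the second Ezr probe set had the opposite order. The same 2 arrays differ in other ways. Folr1-/- replicate 1 had signals of 104 for the Y-linked Eif2s3y and 25.2 for the Y-linked Kdm5d, while Folr1-/- replicate 2 had 3.13 for Eif2s3y and 0.796 for Kdm5d. The 3 Folr1+/+ arrays had 300.3 to 372 for Eif2s3y and 89.5 to 120 for Kdm5d. Xist, transcribed from the inactive X chromosome, gave 419 and 770 in the Folr1-/- arrays and 24.95 to 35.7 in the Folr1+/+ arrays. Folr1-/- replicate 1 thus held both Xist and Y-linked signal, and the labels do not say why. Sex and genotype cannot be told apart for any gene here. The extra folate is named for mothers of Folr1-/- embryos only. If mothers of Folr1+/+ embryos did not get it, maternal diet and genotype cannot be told apart either.

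Promoter windows of 300 bases, 250 before and 50 after the RefSeq transcript start on assembly GRCm38.p6, were held for all 8 genes (9 windows, with a pair for Pdzk1). The members fell on chromosomes 1 (Vil1), 2 (Dpp4), 3 (Pdzk1 and Slc2a2), 7 (Aqp8 and Anpep), 11 (Car4) and 17 (Ezr). Counted by CpG dinucleotides, Slc2a2 had 2, Dpp4 4, Vil1 5, Aqp8 6, Pdzk1 4 and 7, and Car4 15, whereas Anpep had 28 and Ezr 38. The GC content was 45.3% to 61.7% in the first 6 genes, 72.3% in Anpep and 68.0% in Ezr. Ezr and Anpep, with the smallest differences between the genotypes, had the most CpG-rich windows, which was noticed after the values were seen and describes 8 genes, 1 of them near background. The contrast is shown by the Slc2a2 window (chr3:28697653-28697952, plus strand) and the Ezr window (chr17:6782731-6783030, minus strand), each 5′ to 3′ with every CpG in capitals.
Slc2a2: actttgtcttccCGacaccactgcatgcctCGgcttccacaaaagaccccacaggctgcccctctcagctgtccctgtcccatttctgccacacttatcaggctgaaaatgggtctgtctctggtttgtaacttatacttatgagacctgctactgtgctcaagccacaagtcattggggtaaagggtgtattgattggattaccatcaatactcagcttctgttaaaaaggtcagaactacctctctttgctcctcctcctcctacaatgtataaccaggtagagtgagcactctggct
Ezr: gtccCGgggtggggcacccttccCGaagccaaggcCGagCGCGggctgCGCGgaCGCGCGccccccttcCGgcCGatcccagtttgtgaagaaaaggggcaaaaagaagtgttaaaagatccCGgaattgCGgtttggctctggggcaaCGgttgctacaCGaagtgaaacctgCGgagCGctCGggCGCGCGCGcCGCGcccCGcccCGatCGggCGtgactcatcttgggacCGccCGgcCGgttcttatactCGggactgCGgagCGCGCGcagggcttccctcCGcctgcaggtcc

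The median window of all 32851 held 7 CpG. Windows of tested genes held a median of 21, those of tested genes called higher 16, and those of genes called higher by at least 2, with the members left out, 8.5 (26 genes, 36 windows). Windows of genes called lower held a median of 23. Genes tested are those bright enough on the array, so these medians also reflect which genes passed the filter. No test was made of the CpG content.

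**Figure D3:**
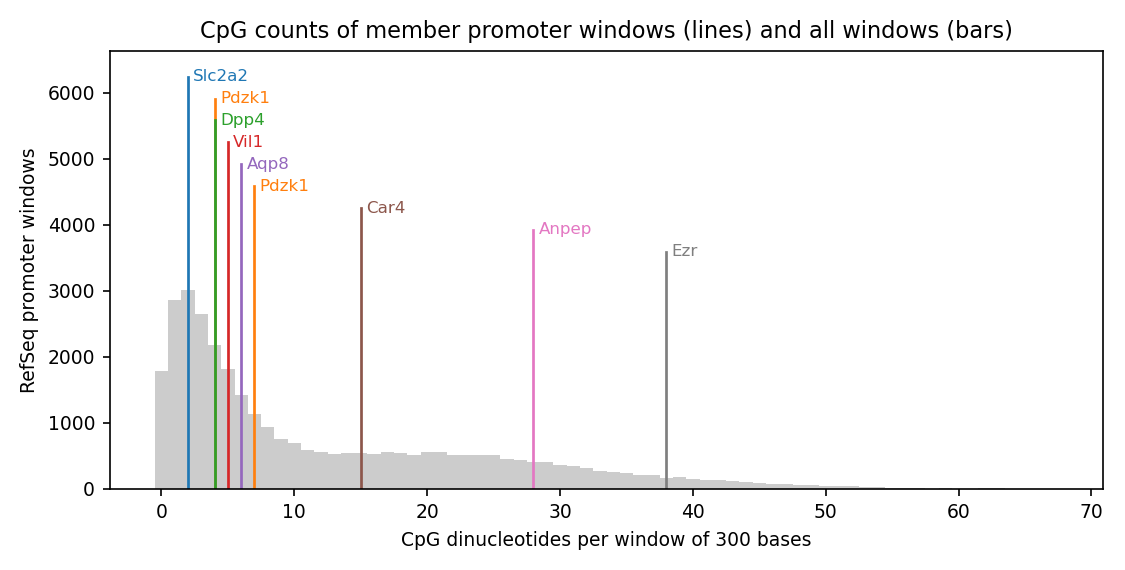
CpG dinucleotides per promoter window of 300 bases for the 8 genes (coloured lines, whose heights carry no value) over the number of RefSeq promoter windows with each count (bars). Slc2a2, Dpp4, Vil1, Aqp8 and Pdzk1 lie between 2 and 7, Car4 at 15, Anpep at 28 and Ezr at 38.

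Letters bound by factors of the endoderm, and those of the TATA box, were then searched on both strands of these windows. CAAAG, part of the HNF4 site, was in 6 of 9 windows and in 53.9% of all windows, the CDX letters TTTATNG were in 3 of 9 (10.9% of all), the TATA box TATAAA in 2 of 9 (13.6%), the GATA letters AGATAA in 1 of 9 (11.2%) and GTTAAT, part of the HNF1 site, in 0 of 9 (7.10%). In Dpp4 and Car4 the CDX match overlaps the TATA match, so these are 1 stretch each. With 9 windows such shares are descriptive. Dpp4 held the most matches, 5, including the only GATA match of the set, which starts at position -32 from the transcript start, and Aqp8 held a CDX match at -6. Both windows are shown for these matches, 5′ to 3′ with matched letters in capitals (Dpp4, chr2:62412182-62412481, minus strand, and Aqp8, chr7:123462044-123462343, plus strand). A match describes letters and is not a binding site.
Dpp4: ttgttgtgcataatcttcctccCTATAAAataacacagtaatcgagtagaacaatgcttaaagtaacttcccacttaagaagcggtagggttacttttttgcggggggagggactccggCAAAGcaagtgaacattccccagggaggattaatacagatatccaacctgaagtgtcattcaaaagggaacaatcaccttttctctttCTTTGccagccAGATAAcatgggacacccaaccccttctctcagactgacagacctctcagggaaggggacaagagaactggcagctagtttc
Aqp8: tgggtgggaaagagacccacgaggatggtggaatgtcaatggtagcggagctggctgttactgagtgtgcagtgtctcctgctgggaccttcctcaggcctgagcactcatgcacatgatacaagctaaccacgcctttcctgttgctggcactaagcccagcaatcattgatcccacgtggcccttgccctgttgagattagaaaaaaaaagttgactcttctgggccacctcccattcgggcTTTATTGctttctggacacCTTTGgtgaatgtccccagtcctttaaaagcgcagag

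Genes listed as relatives of the members, by gene family or name, were mostly untested or did not pass. Of 56 relatives on the array 29 were tested, of which 4 were higher (13.8%, against 8.19% of all tested genes), 2 were lower (6.79% of all tested genes were) and 23 did not pass, with a median log2 difference of -0.12. Of the 56, 14 were near background on all 5 arrays, but some under the filter differed. Fap gave 5.90 and 7.18 in the Folr1-/- arrays, against 40.8, 46.7 and 49.7 in the Folr1+/+ arrays (log2 difference -1.45). Pdzd3 gave 57.3 and 60.9 in Folr1-/- against 12.2, 5.66 and 2.09 in Folr1+/+ (1.75), and Enpep was at 0.89. They were not tested and are named after their values were seen. With no filter 5 relatives were called higher (3.52% of all genes were) and 2 lower. The lists of relatives, like the others below, were drawn up from textbook membership with earlier results of these data known. Gsn, the actin-severing gelsolin and a relative of villin, rose to 303 and 214 in the Folr1-/- arrays, against 66.6, 28.9 and 49.9 in the Folr1+/+ arrays (log2 difference 2.11 ± 0.25, SE, limma adjusted p = 0.00025). Its probe set carries the same x mark as the second one of Ezr, and with the mean of its probe sets the difference was 1.01. Its relative Flii, with the highest mean signal of that family, was at -0.16 ± 0.15 (adjusted p = 0.52). The aquaporin Aqp3, which also passes glycerol, was higher by 1.18 ± 0.21 (adjusted p = 0.0032), a call lost with the mean of its probe sets (0.40) and without Folr1-/- replicate 2 (0.98). Glucose transporter relatives were at 0 of 4 called, and Slc2a3, the brightest, gave signals of 5787 and 6410 in the Folr1-/- arrays, against 5535, 6215 and 5485 in the Folr1+/+ arrays (0.09 ± 0.14, adjusted p = 0.72), with overlapping groups.

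Slc9a3r1, which encodes the PDZ scaffold NHERF1 that binds ezrin, rose by 0.97 ± 0.14 (SE, limma adjusted p = 0.00066), with signals of 2457 and 2688 in the Folr1-/- arrays, against 1303, 1237 and 1369 in the Folr1+/+ arrays. Ezrin's own relatives moved differently from each other. Rdx, radixin, was at 0.31 ± 0.14 (adjusted p = 0.17), and Msn, moesin, fell by 0.54 (adjusted p = 0.044), a call lost when any one of the 5 arrays was left out, with no filter, no intensity trend, median centring (-0.45) or the mean of its probe sets (-0.15). Among the peptidases listed with Dpp4 the cytosolic Dpp8 fell by 0.95 (adjusted p = 0.0026). The lysosomal Dpp7, listed by its name and itself named here after its value was seen, rose by 0.78 ± 0.18 (adjusted p = 0.014). The call of Dpp7 was lost with the mean of its probe sets (0.36), with the replicate block (0.74) and without Folr1-/- replicate 1, Folr1-/- replicate 2 or Folr1+/+ replicate 3. Prepl, the brightest there, was at -0.44 ± 0.15 (adjusted p = 0.077). The brightest relatives of Car4 and Anpep, the cytosolic Car2 and Npepps, were at -0.47 ± 0.17 (adjusted p = 0.087) and -0.50 ± 0.17 (adjusted p = 0.073), and 0 of 5 relatives of either passed. Without Folr1-/- replicate 2, Car2 did pass as lower (-0.71, adjusted p = 0.045). Whether a member's difference exceeds that of its relatives was not tested, since the members were chosen on it.

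Those other components of brush borders that were tested were higher or did not pass, and none of them was lower. Of 54 such genes on the array 18 were near background on all 5 arrays, among them the glucose transporter Slc5a1, the peptide transporter Slc15a1, the meprins Mep1a and Mep1b, lactase (Lct) and trehalase (Treh), all genes of the mature gut or kidney. Of the 22 tested, 7 rose (31.8%, against 8.19% of all tested genes), 0 fell and 15 did not pass, and the median log2 difference was 0.26. The amino acid transporter subunit Slc7a9 gave signals of 200 and 237 in the Folr1-/- arrays, against 34.5, 46.0 and 44.99 in the Folr1+/+ arrays (2.02 ± 0.19, SE, limma adjusted p = 4.6e-05). The zinc importer Slc39a4, mutated in human acrodermatitis enteropathica, gave 227 and 151 in the Folr1-/- arrays, against 54.4, 64.5 and 47.2 in the Folr1+/+ arrays (1.502 ± 0.21, adjusted p = 0.00063). Both stood above every Folr1+/+ array. Some listed genes under the filter differed, in both directions. Dpep1 gave 43.0 and 23.2 in Folr1-/- against 2.47, 5.83 and 3.93 in Folr1+/+ (1.26), and Cdhr5 was at 1.15. Ace gave 15.9 and 10.2 in Folr1-/- against 27.7, 42.6 and 25.9 in Folr1+/+ (-0.72), and Abcg8 was at -0.57. They were not tested and are named after their values were seen. With no filter 8 were called higher (3.52% of all genes were) and 0 lower.

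Of the microvillus genes 3 of 8 rose, 0 fell and 5 did not pass. Podxl, a sialomucin of apical membranes also made by podocytes and vessels, gave signals of 3180 and 2799 in the Folr1-/- arrays, against 1220, 1331 and 1081 in the Folr1+/+ arrays (1.295 ± 0.15, SE, limma adjusted p = 0.00017). The motor Myo6 was higher by 1.34 ± 0.21 (adjusted p = 0.0014), or 0.88 with the mean of its probe sets, and the actin-capping Eps8 by 0.97 ± 0.22 (adjusted p = 0.012). Among pumps the efflux transporter Abcg2 rose by 0.65 ± 0.15 (adjusted p = 0.013), and among peptidases the only one tested, neprilysin (Mme), by 0.98 ± 0.19 (adjusted p = 0.0059). Glycosidases and phosphatases gave 0 of 2 called, Alpl at -0.53 ± 0.20 (adjusted p = 0.099) and Enpp3 at 0.22 ± 0.21 (adjusted p = 0.53). The calls of Eps8 and Abcg2 were lost without Folr1-/- replicate 1, Folr1-/- replicate 2 or Folr1+/+ replicate 3, that of Eps8 also with no filter, and that of Mme without Folr1-/- replicate 2. Without Folr1-/- replicate 2 the count was 4 higher and 1 lower, the lower one being the peptide transporter Slc15a2.

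Genes of the opposite, basolateral membrane gave 3 higher, 0 lower and 6 not passing of 9 tested (33.3% higher, against 8.19% of all tested genes), with a median of 0.42. The amino acid transporter Slc7a7 was higher by 1.71 ± 0.19 (SE, limma adjusted p = 0.00015), the iron exporter Slc40a1 by 1.26 ± 0.25 (adjusted p = 0.0055) and the sodium pump subunit Atp1b1 by 1.22 ± 0.15 (adjusted p = 0.00028). Without either Folr1-/- replicate the call of Slc40a1 was lost. Slc7a7 pairs in function with the apical Slc7a9 in the handling of basic amino acids in gut and kidney. Both were among the calls, but the pair was picked after their values were seen. Of the amino acid transporter subunits also listed, the basolateral Slc3a2 did not pass (0.58 ± 0.19, adjusted p = 0.061). The brush border Slc3a1 was under the filter, at -0.56. A joint change of these genes was not tested.

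**Figure D4:**
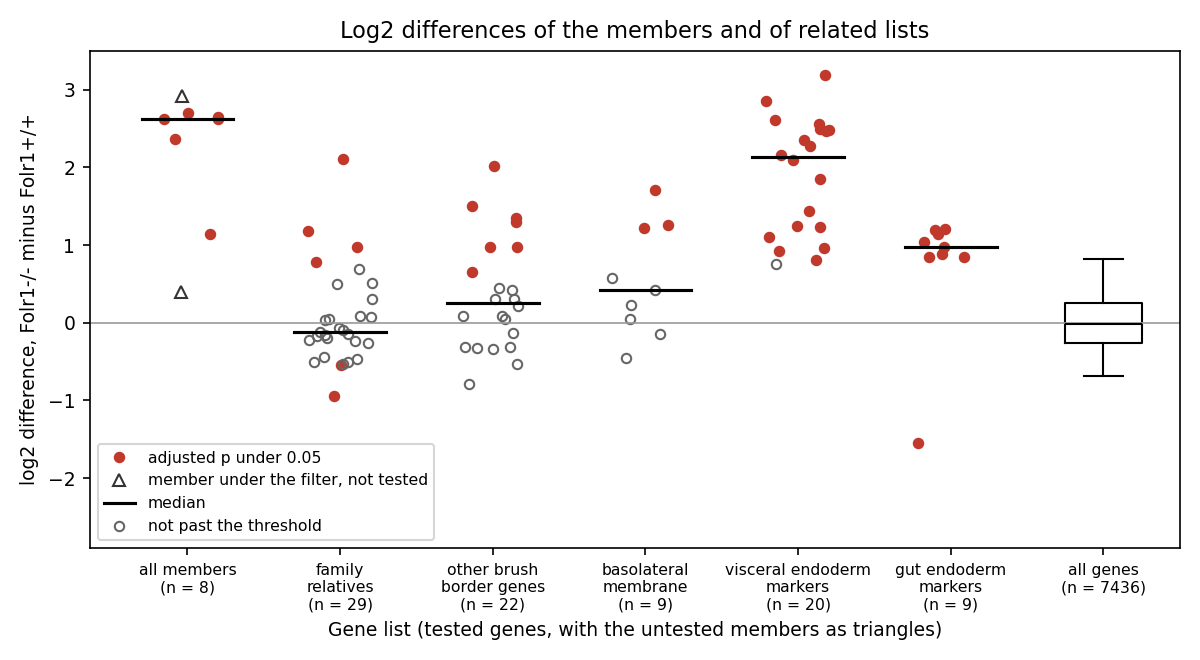
Log2 differences (Folr1-/- minus Folr1+/+) of the 8 members and of the tested genes of each list, filled where the adjusted p was under 0.05, with a bar at the median, beside a box (quartiles, whiskers at the 5th and 95th percentiles) of all 7436 tested genes. Members and visceral endoderm markers have medians of 2.62 and 2.13, gut endoderm markers 0.98, family relatives -0.12, other brush border genes 0.26 and basolateral genes 0.42.

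Marker lists of 8 tissues were set beside the members, against shares of 8.19% higher and 6.79% lower among all tested genes. Of 20 tested markers of visceral endoderm and yolk sac, 19 were higher, 0 lower and 1 did not pass (Ihh, 0.75 ± 0.24, adjusted p = 0.052, which passed in 6 alternatives), with a median of 2.13, and their summed signal was 19523 and 19914 in the Folr1-/- arrays, against 3434 to 4640 in the Folr1+/+ arrays. None of these 20 markers was near background on all 5 arrays. Of 9 tested gut endoderm markers 8 were higher and 1 lower (Sox2), with a median of 0.98. Their list had summed signals of 2590 and 2296 in Folr1-/- against 1282 to 1454 in Folr1+/+, with Shh, Nkx2-1 and Pdx1 near background on all arrays. Sums here run over all genes of a list on the array, tested or not. For the 8 genes of nephric duct and mesonephros the sums overlapped (172 and 159 in Folr1-/- against 158 to 178 in Folr1+/+). Wt1, Osr1 and Wnt9b were near background throughout. Of the 2 tested genes of that list 0 passed. Pax8, one of the 2, gave 20.8 and 21.7 in Folr1-/- against 35.2, 39.1 and 42.5 in Folr1+/+ (-0.56, adjusted p = 0.086), and passed as lower with no intensity trend (adjusted p = 0.042) or with the mean of probe sets (0.031). Parietal endoderm gave 3 higher and 0 lower of 8 tested, with sums of 4763 and 5328 in Folr1-/- against 3599 to 3711 in Folr1+/+. Trophoblast gave 1 higher and 0 lower of 2, with sums of 392.4 and 461 in Folr1-/- against 236 to 271 in Folr1+/+. Decidua gave 3 higher and 0 lower of 4, with sums of 691 and 606 in Folr1-/- against 246 to 340 in Folr1+/+, and the calls of Prl8a2, Bmp2 and Cryab were each lost in at least 1 alternative. Prl8a2 gave 143 and 34.6 in Folr1-/- against 13.6 to 23.2 in Folr1+/+, and without Folr1-/- replicate 1 it did not pass (0.61, adjusted p = 0.31). Without Folr1-/- replicate 2 Bmp2 did not pass (0.96, adjusted p = 0.10), nor did Cryab with the mean of its probe sets (0.46, adjusted p = 0.10). Surface ectoderm gave 1 higher and 2 lower of 4, with sums of 406 and 397 in Folr1-/- against 341 to 390 in Folr1+/+. Primitive red cell genes gave 0 higher and 6 lower of 7, with sums of 207 and 627 in Folr1-/- against 5397 to 6339 in Folr1+/+. Some marker genes passed the filter only through their brighter group, and such genes had to differ to be tested. Higher calls of this kind, with their Folr1+/+ means, were Apoa2 (18.6), Cited1 (21.8), Foxa3 (23.8), Pyy (26.0) and Prl8a2 (17.4). Lower calls, with their Folr1-/- means, were Hba-x (16.2), Slc4a1 (9.72), Klf1 (13.9), Alas2 (11.2) and Trp63 (18.8). The counts of their lists are thus partly fixed by the filter. In RNA of whole embryos more cells of a type and more RNA per cell cannot be told apart, and the part of these tissues in the values of the 8 genes was not tested.

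By distance of pattern over the 5 arrays, the genes nearest to the average of the 6 tested members were Nrk (0.13), Phlda2 (0.24), Rbp4 (0.26), Lrpap1 (0.39) and Afp (0.40). The distance is Euclidean, on log2(signal + 16) with each gene's Folr1+/+ mean taken as 0. Dpp4 itself lay at 0.52 and Ezr at 1.73, with 9 and 159 genes outside the group nearer than they were. Nrk encodes a kinase, Phlda2 is an imprinted growth regulator, Rbp4 carries retinol, Lrpap1 chaperones receptors of the LDL receptor family, and Afp is a serum protein of yolk sac and fetal liver. Nrk gave signals of 561 and 480 in the Folr1-/- arrays, against 99.6, 74.4 and 96.9 in the Folr1+/+ arrays. With 5 arrays in 2 groups this likeness rests almost wholly on the difference between the groups. With the mean of their probe sets the differences of Nrk and Afp were 1.41 and 1.37, against 2.34 and 2.56 at the probe sets used.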

How the data were processed

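Expression was measured in 5 whole-embryo RNA samples on 1-colour Affymetrix Mouse Genome 430A arrays, after 2 rounds of RNA amplification per the labels' protocols. The deposited values are linear signal intensities, 1 per probe set, made with MAS5 per the submitters' processing notes. Their scaling by the authors was kept. Precision is limited by the number of arrays, which leaves 3 residual degrees of freedom per gene before limma moderates the variances across genes. Of 22690 probe sets, 64 were controls, 20380 had 1 gene symbol, 691 several and 1555 were not listed in the platform annotation. Where a gene had several probe sets, the brightest by mean log2(signal + 16) stood for it, which gave 12393 genes, and the 40th percentile filter left 7436. Models were fitted by lmFit and by eBayes with an intensity trend (limma 3.58.1, R 4.3.3), and p-values were adjusted over all 7436 by Benjamini-Hochberg. The code was tested on simulated data with known changes.

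Over all genes 609 were higher and 505 lower, and with each array centred on its median 769 were higher and 341 lower, so that 69.3% of calls were higher in place of 54.7%. The 8 members and all lists were chosen with earlier results of these data known. Beside members and list counts, genes are named by rule: the brightest relative and the largest call of each family, and per other list up to 4 calls by size or else the 2 smallest p. Fap, Pdzd3, Enpep, Dpep1, Cdhr5, Ace, Abcg8, Slc3a1 and Slc3a2, like Dpp7, were named after their values were seen. Of the marker lists only counts, sums and exceptions are printed. Promoters came from RefSeq on GRCm38.p6, and all 8 symbols matched. No table of protein sequences was used here. Alternatives were pseudocounts of 1 and 64, no filter or the 60th percentile, median centring, quantile normalization, no trend, a replicate block, averaging the probe sets of each gene and leaving out each array.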

Additional observations from a re-analysis of the deposited data

How the results depend on the processing

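Since the members were chosen on this contrast, and Aqp8 and Pdzk1 passed the filter only through their Folr1-/- signals, their calls under other settings are no sign of stability. The count of members called was 6 except with no filter (7 of 8 tested) or a 60th percentile filter (3 of 3 tested). The median over all 8 was 2.96 with a pseudocount of 1 and 1.65 with 64, and 2.30 to 2.74 with each array left out in turn. With arrays left out, 10 to 11 of 11 member probe sets had groups apart. Family relatives gave 3 calls in place of 6 when probe sets were averaged, and 4 to 6 with arrays left out. Other brush border genes gave 2 calls in place of 7 with the filter at the 60th percentile, where only 5 were tested, and 5 to 7 with arrays left out. Basolateral genes gave 2 to 4. Calls over the whole array numbered 1114, against 369 without replicate 1 of Folr1-/-, 664 without its replicate 2, 636 without replicate 3 of Folr1+/+ and 962 to 1007 without the other arrays. Differences near 0 turned sign for Enpp3 (-0.0037 with the mean of probe sets, -0.0047 to 0.44 with arrays left out in turn, the lowest without Folr1-/- replicate 2) and for Folr1 (0.025 with median centring, and -0.17 to 0.032 with arrays left out in turn, above 0 without Folr1-/- replicate 2 or Folr1+/+ replicate 1), and the cause was not tested. Over 58 other genes, those the naming rule took (marker genes not named in the text included) plus Dpp7, Ihh and Slc15a2, 726 of 790 values under alternatives kept direction and call, 49 lost the call, 10 gained it and 5 turned sign. With the replicate number as a block 899 genes were called, and the median of the members was 2.57. The labels do not say that a replicate number marks a litter or batch, so the numbers were not taken as pairs. Deviations of same-numbered arrays from their group means had correlations of 0.019 and -0.056. With 2 Folr1-/- arrays their deviations mirror each other, so these correlations are not separate checks and do not decide on pairing. The block changed no call of a member. Beside the small number of arrays, low signal limits what can be said of Anpep and of Vil1 in the Folr1+/+ arrays.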
